A study of Mus musculus with 6 samples.

Results

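The comparison of activated hepatic stellate cells given PRI-724 with activated cells given vehicle rested on 4 of the 6 arrays of the study. These were a PRI-724 and a vehicle array from young mice, the young pair, and a PRI-724 and a vehicle array from old mice, the old pair. Differences were taken as PRI-724 minus vehicle within each pair. Each gene was represented by probe sets that carry 1 gene symbol, and by the one with the highest mean signal where there were several. This gave 22180 genes, of which 15526 had enough signal to be tested.

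Each array measured total RNA of primary stellate cells pooled from 5 mice. The young mice were 8 to 11 weeks old and the old mice 6 to 9 months. All activated cells had been grown on uncoated plastic for more than 20 days, and the treated cells received C-82 at 10 µM in dimethyl sulfoxide. PRI-724 is a prodrug that is converted to C-82, and the treated cells carry the name PRI-724 here, as in the titles. The labels do not say how long C-82 was present. A quiescent array of each age, from cells plated for 12 h, entered the estimate of the error but not the differences. Each group held 1 array, so no group had a spread of its own and n was 2 pairs throughout. The number of arrays limits the precision, and nothing in the labels says whether the vehicle and PRI-724 dishes of 1 age came from the same pool.

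Stellate cells surround the sinusoids of the liver and store its vitamin A. In culture or in injured liver they turn into contractile myofibroblasts that secrete collagen. When a Wnt ligand binds a Frizzled receptor, beta-catenin escapes degradation, enters the nucleus and joins TCF/LEF factors on DNA. There it recruits one of the closely related coactivators CBP and p300. C-82 blocks the binding of beta-catenin to CBP and leaves that to p300.

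The young PRI-724 array had a narrower signal range than the other 5. From the 25th to the 75th percentile it spanned 1.71 log2 units. The old PRI-724 array spanned 2.32, the young vehicle array 2.43 and the old vehicle array 2.34. The quiescent arrays had ranges of 2.15 in young and 2.11 in old cells. A narrower range lowers bright genes and raises dim ones in the young pair, so the list medians below are given for each pair. Across all tested genes the median difference was -0.14 in young and -0.01 in old cells.

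**Figure D1:**
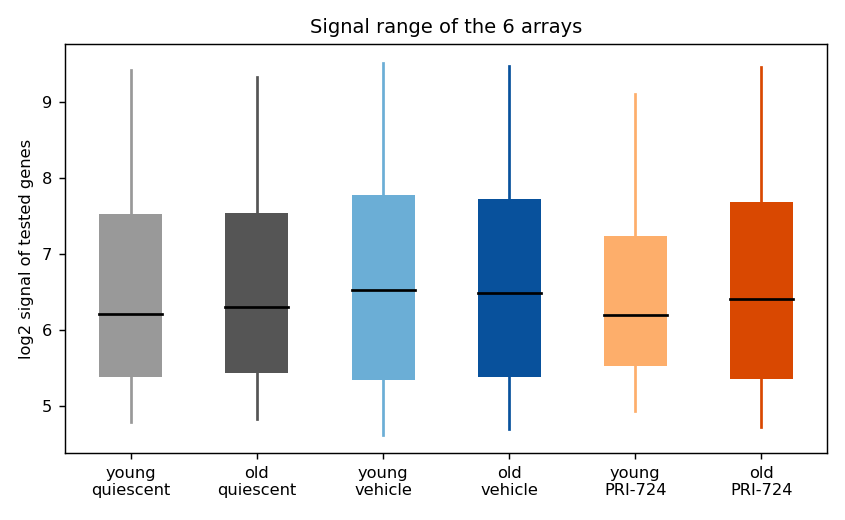
Signal of the 15526 tested genes on each of the 6 arrays, in log2 units; the box spans the 25th to the 75th percentile, the black line is the median and the thin line runs from the 5th to the 95th percentile. The box of the young PRI-724 array spans 1.71 log2 units and those of the other arrays span 2.11 to 2.43.

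In total 299 of the tested genes fell (1.93%) and 42 rose (0.271%) at an adjusted p of 0.05 (limma, Benjamini-Hochberg adjustment over all tested genes). Without a test, 366 genes were at least 2-fold lower in both pairs (2.36%) and 57 at least 2-fold higher in both (0.367%). At an unadjusted p under 0.05 (limma), 1730 of the 15526 tested genes were lower and 674 higher. These are the background for the list counts at that p below. The fallen genes had a median of -2.33 in young and -1.62 in old cells, and 275 of them were at least 2-fold lower in both. The calls needed the young PRI-724 array: without it 0 genes passed the threshold, with 997 at an unadjusted p under 0.05 and a smallest adjusted p of 0.226, while all 341 called genes kept their sign. After quantile normalization of the arrays 82 of the 299 falls and 1 of the 42 rises remained, and after cyclic loess 100 and 2.

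**Figure D2:**
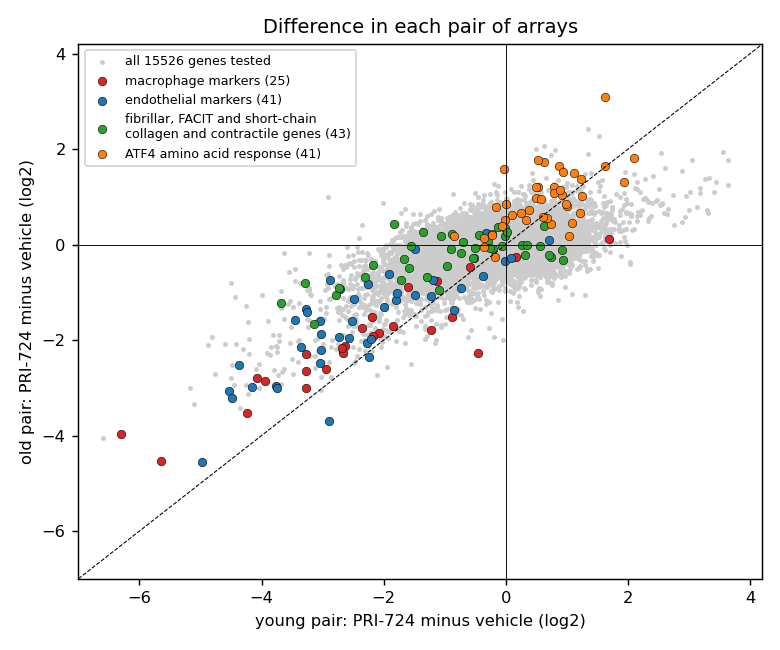
PRI-724 minus vehicle in the young pair (horizontal axis) and in the old pair (vertical axis), in log2 units, with 1 point a gene; the dashed line marks equal differences. Macrophage (red) and endothelial (blue) markers lie low in both pairs, collagen and contractile genes (green) lie low mainly in the young pair, and most genes of the ATF4 amino acid response (orange) lie above 0 in both.

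Short promoter windows are printed from a pair of gene groups with medians of opposite sign, so that the letters can be read beside the values. ATF4, a transcription factor switched on by amino acid shortage and other stress, binds a C/EBP-ATF element written TGATGNAA. PU.1, the master factor of macrophages, binds sites that include GAGGAAGT. Both strands were searched in RefSeq promoters of GRCm38.p6, each running from 250 bases before to 50 after a gene's start. Overlap between matches of different motifs was not examined. The first 4 windows belong to the ATF4 target genes with the largest differences that hold TGATGNAA upstream of the start, and none of the 4 passed the threshold. They are given 5′ to 3′ on the gene's strand, with the motif, or its reverse complement, in capitals.
Slc7a11 (chr3:50443623-50443690, minus strand): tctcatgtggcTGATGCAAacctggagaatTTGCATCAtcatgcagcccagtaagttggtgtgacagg
Asns (chr6:7693210-7693262, minus strand): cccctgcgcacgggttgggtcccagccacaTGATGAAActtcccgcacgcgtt
Nupr1 (chr7:126625543-126625610, minus strand): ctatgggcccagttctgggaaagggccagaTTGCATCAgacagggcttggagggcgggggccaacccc
Tars (chr15:11399659-11399703, minus strand): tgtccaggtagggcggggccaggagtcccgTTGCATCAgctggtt

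The other 4 belong to the fallen genes with the largest differences whose promoters hold GAGGAAGT upstream of the start, again in capitals on either strand.
Mmp12 (chr9:7344279-7344346, plus strand): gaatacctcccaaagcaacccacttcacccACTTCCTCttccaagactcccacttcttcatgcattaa
Cd300ld (chr11:114989992-114990059, minus strand): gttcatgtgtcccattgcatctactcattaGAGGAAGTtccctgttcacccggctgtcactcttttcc
Arhgap25 (chr6:87496328-87496368, minus strand): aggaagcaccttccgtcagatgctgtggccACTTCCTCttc
Rasgrp3 (chr17:75435825-75435892, plus strand): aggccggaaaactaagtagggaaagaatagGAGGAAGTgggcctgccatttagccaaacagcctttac

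The element TGATGNAA occurred in 12 of the 33 ATF4 response genes with a promoter in the table (36.4%), against 4.51% of all 27025 promoters and 3.13% of those of tested genes. Members of the response with the element had a median difference of 0.96 and those without it 0.77. Slc7a11 holds 2 copies within its window. GAGGAAGT occurred in 25 of 222 fallen genes with a promoter (11.3%), against 3.69% of all promoters and 3.59% of those of tested genes. In the macrophage marker list it occurred in 1 of 18 promoters (5.56%). The TCF/LEF motif CTTTGAT occurred in 2.25% of the fallen genes, 3.23% of tested genes and 4.29% of all promoters. These matches are descriptions of letters and not of binding.

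Macrophage genes fell in both pairs. Of 25 macrophage markers tested, 18 fell and 0 rose, beside the 1.93% of all genes, with medians of -2.36 in young and -2.13 in old cells. Vsig4, a complement receptor of Kupffer cells, read 9.24 and 8.88 on the young and old vehicle arrays and 3.60 and 4.35 on the PRI-724 arrays. Both treated arrays were far below both vehicle arrays, a fall of 5.08 ± 0.33 log2 units or 33.9-fold (SE, n = 2 pairs, adjusted p = 0.00054). The treated values of Vsig4 were under 4.703, the mean signal below which genes were left out, so the size of its fall is less certain. The same holds wherever a treated value given later is under that limit. Cd5l, a protein secreted by tissue macrophages, read 10.57 and 9.39 with vehicle and 4.26 and 5.42 with PRI-724, and fell by 5.14 ± 0.51. Csf1r, the receptor that macrophages need to survive, read 8.74 on each vehicle array and 5.79 and 6.13 on the treated ones, and fell by 2.78 ± 0.42 (adjusted p = 0.0102).

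The fallen macrophage genes span several functions. Marco and Msr1, scavenger receptors, fell by 3.14 ± 0.65 and 3.44 ± 0.34, and Marco did not pass under the 3 other scalings. Cybb, the catalytic subunit of the phagocyte oxidase, read 9.25 and 9.43 with vehicle and 5.01 and 5.91 with PRI-724. Its values on the quiescent arrays were 8.94 and 9.68, so the treated arrays also lay below those of freshly plated cells. The complement genes C1qb and C1qc fell by 2.78 ± 0.33 and 1.97 ± 0.31, and their partner C1qa stood at -1.50 ± 0.33 (adjusted p = 0.0518). The signalling adaptors Tyrobp and Fcer1g differed by -2.42 ± 0.30 and -2.96 ± 0.28, and both passed the threshold. Ptprc, the pan-leukocyte gene for CD45, read 7.51 and 7.41 with vehicle and 5.32 and 5.50 with PRI-724.

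The other 7 macrophage markers did not pass the threshold. Spi1, which encodes PU.1, read 7.35 and 7.41 with vehicle and 6.46 and 5.90 with PRI-724 (-1.20 ± 0.29, adjusted p = 0.0735). Clec4f of Kupffer cells stood at -1.36 ± 0.41. Cx3cr1, a chemokine receptor, was the one marker higher in both pairs, at 1.69 in young and 0.11 in old cells. After quantile normalization or cyclic loess 11 of the 25 markers fell, with medians between -2.07 and -2.16 in either pair.

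Endothelial genes fell with them. Of 20 tested markers of sinusoidal endothelial cells, which line the liver's capillaries, 13 fell and 0 rose, with medians of -2.97 and -2.04. Oit3 read 10.54 and 10.14 with vehicle and 5.58 and 5.60 with PRI-724. That was a fall of 4.76 ± 0.35, or 27.0-fold (adjusted p = 0.000764), to a level below the quiescent values of 8.01 and 6.68. Stab2, a hyaluronan scavenger receptor, read 9.41 and 8.99 with vehicle and 5.04 and 6.45 with PRI-724. Lyve1, another hyaluronan receptor, read 9.54 and 9.97 with vehicle and 6.63 and 6.28 with PRI-724 and fell by 3.30 ± 0.71 (adjusted p = 0.0465). After cyclic loess or quantile normalization 7 of the 20 passed, and 10 after scaling the interquartile ranges. The quiescent values of Lyve1, 12.30 in young and 8.83 in old cells, were far apart between the ages, and its SE is among the larger ones.

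Kdr and Flt4, the VEGF receptors of blood vessel and lymphatic endothelium, fell by 2.45 ± 0.35 and 2.26 ± 0.41, with old pair differences of -1.88 and -1.95. F8, the clotting factor made by sinusoidal endothelium, fell by 3.38 ± 0.50, and Clec4g, a sinusoidal lectin, by 2.75 ± 0.46, with old pair differences of -3.0 and -2.14. The 7 markers that did not pass include 2 secreted Wnt signals of these cells: Rspo3 stood at -1.26 ± 0.32 (adjusted p = 0.0879) and Wnt2 at -1.11 ± 0.44.

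Markers shared by all endothelium behaved likewise. Of 21 tested, 12 fell and 0 rose, with medians of -2.26 and -1.31. Cdh5, the adherens junction cadherin of endothelium, read 11.76 and 11.87 with vehicle and 8.30 and 10.30 with PRI-724, a fall of 2.51 ± 0.44. Pecam1 read 10.29 and 10.07 with vehicle and 7.01 and 8.73 with PRI-724. For both genes the treated arrays lay below the vehicle arrays, and the young pair showed the larger drop. Sox18, a transcription factor of vessels, was more even between pairs: it read 6.63 and 6.43 with vehicle and 4.41 and 4.45 with PRI-724, a fall of 2.10 ± 0.24 (adjusted p = 0.00317). Only 2 of the 21 passed after quantile normalization or cyclic loess and 3 after scaling the interquartile ranges, with medians that stayed between -1.10 and -2.03.

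**Figure D3:**
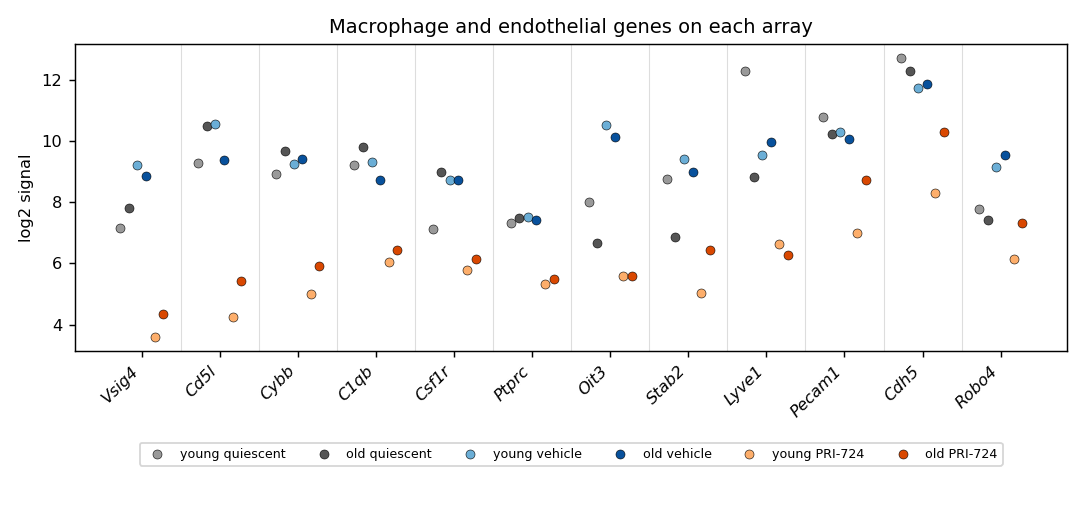
Log2 signal of 12 macrophage and endothelial genes on each of the 6 arrays, 1 point an array. For every gene shown both PRI-724 arrays (orange) lie below both vehicle arrays (blue) and below both quiescent arrays (grey).

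The cultures labelled stellate cells carried macrophage and endothelial transcripts at high signal. On both vehicle arrays 21 of 25 macrophage, 18 of 20 sinusoidal and 16 of 21 pan-endothelial markers lay above the array's median, against 4, 6 and 8 on both PRI-724 arrays. Among all 15526 tested genes 7272 lay above it on both vehicle arrays and 6898 on both PRI-724 arrays. The mean log2 signal of the macrophage list was 7.90 and 8.51 on the young and old quiescent arrays, 8.20 and 8.06 with vehicle, and 5.81 and 6.00 with PRI-724. For the sinusoidal list it was 9.49 and 8.31, 9.11 and 8.71, and 6.33 and 6.73 in the same order. In RNA from whole cultures fewer cells of a type and less RNA per cell cannot be told apart. Of 6 T, NK and B cell, 4 neutrophil and mast cell, 4 cholangiocyte and 12 mesothelial and portal fibroblast markers none passed the threshold, and 1 of them was at an unadjusted p under 0.05. The T, NK and B cell and the neutrophil and mast cell lists had 13 and 12 measured members, so many lacked signal. Their vehicle means, 5.08 to 5.23, were near the limit of 4.703, so a fall could hardly be seen. None of the 18 hepatocyte markers passed the threshold either, with 4 at an unadjusted p under 0.05, all higher, and medians of 0.84 in young and 0.03 in old cells. Alb, serum albumin, read 7.02 and 10.07 with vehicle and 8.96 and 10.22 with PRI-724. The part of the macrophage and endothelial lists in the falls of other gene groups was not tested.

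Stellate cell markers were present on all activated arrays. Of 23 tested, 16 lay above the array median on both vehicle arrays and 13 on both PRI-724 arrays. Among all 15526 tested genes these counts were 7272 and 6898. In both pairs 13 of the 23 markers were lower and 2 higher, beside 5435 and 4009 of all tested genes. At an unadjusted p under 0.05 (limma), 7 of the markers were lower and 0 higher. Reln, a secreted glycoprotein of stellate cells, read 10.06 and 10.04 with vehicle and 9.68 and 9.99 with PRI-724 (-0.22 ± 0.27). Des, desmin, read 9.41 and 8.99 with vehicle and 8.05 and 9.26 with PRI-724. It was lower only in the young pair.

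Of these markers 3 fell, all with 2-fold or larger drops in both pairs. Tcf21, a mesenchymal transcription factor, read 7.63 and 8.45 with vehicle and 5.56 and 6.84 with PRI-724, a fall of 1.84 ± 0.33 (adjusted p = 0.0221). Lrat, which stores vitamin A as retinyl ester, read 7.71 and 8.15 with vehicle and 5.57 and 6.92 with PRI-724 and fell by 1.69 ± 0.31. Pparg, a nuclear receptor linked to the lipid-storing state, read 6.54 and 6.69 with vehicle and 4.35 and 5.49 with PRI-724 and fell by 1.69 ± 0.29. For Lrat the quiescent arrays read 6.32 and 6.87. The list as a whole had medians of -0.49 in young and -0.05 in old cells, and the direction turned after scaling the interquartile ranges, where all genes shifted to a median of 0.17 and this list stood at 0.08. None of the 3 genes passed after quantile normalization or cyclic loess.

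Retinoid and lipid handling held 34 tested genes, of which 6 fell and 0 rose, with medians of -0.45 and -0.27. Besides Lrat the retinoid genes were Aldh1a1, which makes retinoic acid (-2.13 ± 0.45), Rarb, a retinoic acid receptor (-1.82 ± 0.39), and Dhrs3, which reduces retinaldehyde (-1.51 ± 0.30). Rarb stood at -2.55 and -1.09 in the pairs and Dhrs3 at -2.05 and -0.96. Aldh1a1 read 11.02 and 10.97 with vehicle and 7.83 and 9.91 with PRI-724, with the larger drop in the young pair. The lipid genes were Cd36, a fatty acid carrier, and Fabp4, a fatty acid-binding protein, both also known from macrophages and endothelium. They fell by 3.74 ± 0.41 and 3.10 ± 0.55. Of the 6 genes, 1, Cd36, passed after cyclic loess or quantile normalization. After scaling the interquartile ranges 3 passed. There the median of the mean differences was 0.05, beside 0.17 for all tested genes.

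The question behind the compound is what it does to the myofibroblast state. Acta2 and Col1a1 were lower in both pairs without passing the threshold, and Lox and Timp1 were lower only in the young pair. Of 23 contractile and 21 collagen-modifying genes, 11 each were lower in both, beside 5435 of all 15526 tested genes. Acta2, the smooth muscle actin that marks activation, read 9.73 and 10.49 with vehicle and 7.0 and 9.59 with PRI-724, a difference of -1.82 ± 0.41 (adjusted p = 0.0573). The treated old array thus lay below both vehicle arrays by a small margin and far above the quiescent values of 5.94 and 6.97. Myl9, a myosin light chain, read 9.71 and 9.65 with vehicle and 6.56 and 7.98 with PRI-724 and fell by 2.41 ± 0.36 (adjusted p = 0.00969). It was the 1 contractile gene of 23 that fell. The contractile list had medians of -0.71 in young and -0.08 in old cells. After scaling the interquartile ranges the median of its mean differences was 0.15, beside 0.17 for all tested genes. Tagln, an actin-binding protein of smooth muscle, stood at -1.50 ± 0.45.

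None of 10 fibrillar collagen genes passed the threshold (limma), and 3 were lower at an unadjusted p under 0.05. Col1a1, the main chain of type I collagen, read 8.85 and 10.16 with vehicle and 6.08 and 9.10 with PRI-724 (-1.92 ± 0.48, adjusted p = 0.0803). The ranges of the groups overlapped, since the treated old array lay above the young vehicle array. Col1a2, its partner chain, read 6.87 and 8.18 with vehicle and 6.34 and 7.90 with PRI-724 (-0.40 ± 0.38). Col3a1, of type III collagen, read 8.58 and 8.50 with vehicle and 6.39 and 8.08 with PRI-724 (-1.30 ± 0.45, adjusted p = 0.203). All 10 members of the list were lower in the old pair and 5 in the young pair, beside 7977 and 8967 of all 15526 tested genes. The list had medians of -0.24 in old and -0.13 in young cells, and the young median was above 0 under all 3 other scalings.

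Outside the fibrillar collagens 4 genes fell in the lists of matrix components and collagen-modifying enzymes. Ogn, osteoglycin, a small proteoglycan of the matrix, read 9.14 and 8.84 with vehicle and 4.54 and 6.76 with PRI-724, a fall of 3.34 ± 0.51 (adjusted p = 0.0107). On the quiescent arrays it read 4.86 and 4.87. Nid2, a nidogen of basement membranes, read 10.41 and 10.64 with vehicle and 6.51 and 8.36 with PRI-724 and fell by 3.09 ± 0.38 (adjusted p = 0.00389). Col12a1, a fibril-associated collagen, fell by 2.46 ± 0.49, and Pcolce, which enhances the trimming of procollagen, by 1.59 ± 0.29. In the lists these genes come from, 1 of 27 matricellular, 1 of 21 basement membrane, 1 of 10 other collagen and 1 of 21 collagen-modifying genes fell, and 0 rose, beside 1.93% of all tested genes. Of the 4, only Nid2 passed after cyclic loess or quantile normalization. Col12a1 stood at -3.69 in young and -1.23 in old cells.

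Collagen-modifying enzymes differed between the pairs, by an amount that depended on the scaling. Their median was -1.05 in young and -0.08 in old cells. It was -0.73 and -0.06 after cyclic loess, and -0.70 and -0.01 after quantile normalization. After scaling the interquartile ranges it was -0.33 and 0.0, beside 0.28 and 0.06 for all tested genes. Lox, the enzyme that crosslinks collagen, read 10.54 and 8.86 with vehicle and 7.61 and 9.86 with PRI-724, so it was 2.92 lower in young cells and 1.0 higher in old cells. Plod2, which prepares collagen for crosslinking, stood at -2.06 and -0.13, and Loxl3, a relative of Lox, at -1.97 and -1.10 (adjusted p = 0.0593). Postn, periostin, had a similar pattern, with 8.49 and 9.40 with vehicle and 5.83 and 8.88 with PRI-724. Fbln2, a fibulin, was higher in both pairs, at 1.37 and 0.96, and did not pass the threshold. In the list of 27 matricellular, elastic and proteoglycan genes 10 were lower and 3 higher in both pairs. Among all 15526 tested genes 5435 were lower and 4009 higher in both. At an unadjusted p under 0.05 (limma), 8 of the 27 were lower and 2 higher.

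**Figure D4:**
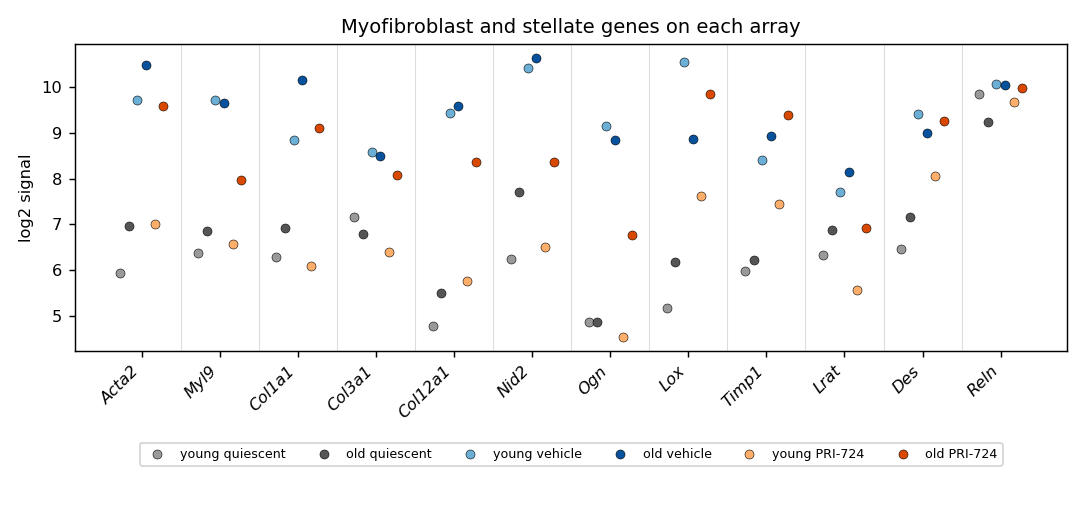
Log2 signal of 12 myofibroblast and stellate cell genes on each of the 6 arrays, 1 point an array. The old PRI-724 array (dark orange) stays near the vehicle arrays (blue) for Col3a1, Timp1, Des and Reln and drops for Myl9, Nid2, Ogn and Lrat, and Lox goes in opposite directions in the 2 pairs.

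Of 28 matrix proteases and their inhibitors 5 fell and 0 rose, with medians of -0.56 and -0.44. Mmp12, the macrophage elastase, read 11.19 and 11.01 with vehicle and 6.69 and 8.49 with PRI-724 and fell by 3.50 ± 0.46. Ctss, cathepsin S, a protease of antigen-presenting cells, fell by 3.0 ± 0.37, Plau, the urokinase that activates plasminogen, by 2.08 ± 0.33, Mmp19 by 1.96 ± 0.28 and Adamts5, an aggrecanase, by 1.85 ± 0.38. Plau stood at -2.68 and -1.47 in the pairs and Adamts5 at -2.57 and -1.14. Ctss, Plau and Mmp19 also passed after cyclic loess and after quantile normalization, and the other two did not. Ctsk, cathepsin K, which degrades collagen, was higher in both pairs, at 1.0 and 1.28 (adjusted p = 0.123). Timp1, an inhibitor of these enzymes, read 8.41 and 8.94 with vehicle and 7.45 and 9.39 with PRI-724 (-0.26 ± 0.39).

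The partners of the drug target were not called. None of 19 tested genes of beta-catenin, CBP and their partners passed the threshold (limma), and 1 was lower at an unadjusted p under 0.05. Ctnnb1, beta-catenin, read 10.42 and 10.10 with vehicle and 10.04 and 10.38 with PRI-724, a difference of -0.05 ± 0.23. Crebbp, which encodes CBP, read 9.51 and 10.15 with vehicle and 10.05 and 10.08 with PRI-724 (0.24 ± 0.24). Ep300, which encodes p300, differed by 0.12 ± 0.27. In all 3 genes the groups overlapped, and the sign of the small differences turned under some alternatives. Tcf7l2, a DNA-binding partner of beta-catenin, read 7.42 and 7.29 with vehicle and 6.01 and 6.33 with PRI-724 (-1.19 ± 0.28, adjusted p = 0.0699).

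Genes used as readouts of Wnt signalling were not called either. Of 21 tested targets 0 rose and 0 fell (limma), 3 were higher and 2 lower at an unadjusted p under 0.05, and the medians were 0.27 in young and -0.06 in old cells. Of the same 21 targets, 6 were higher and 7 lower in both pairs, beside 4009 and 5435 of all 15526 tested genes. Axin2, a feedback inhibitor and standard readout of the pathway, read 5.73 and 5.41 with vehicle and 6.55 and 5.69 with PRI-724. It differed by 0.55 ± 0.29 (adjusted p = 0.402), and a second probe set of the gene by 0.06. Myc, a growth-promoting transcription factor, read 9.56 and 8.92 with vehicle and 10.48 and 9.80 with PRI-724, higher in both pairs by 0.92 and 0.89 (adjusted p = 0.0953). Ccnd1, cyclin D1, read 9.12 and 9.60 with vehicle and 6.63 and 9.13 with PRI-724, a difference of -2.49 in young and -0.47 in old cells (adjusted p = 0.279). Lgr5 and Birc5 were below the signal limit and not tested. S100a4 was near the lowest signals at 4.84 and 4.93 with vehicle and 4.75 and 4.85 with PRI-724.

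Of 28 Wnt ligands and receptors and 11 secreted antagonists none passed either, with 7 and 1 lower at an unadjusted p under 0.05. The lowest p among the receptors was that of Fzd7, a Frizzled receptor, which stood at -1.77 and -0.81 (adjusted p = 0.0665). Frzb, a secreted antagonist, read 10.64 and 10.52 with vehicle and 8.29 and 9.78 with PRI-724 (adjusted p = 0.0537). Lrp5, the co-receptor, stood at -1.02 ± 0.27.

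Among ligands of other pathways a few fell. Edn1, endothelin 1, which makes stellate cells contract, read 9.46 and 9.89 with vehicle and 6.07 and 7.86 with PRI-724, a fall of 2.71 ± 0.35 (adjusted p = 0.0047). Apln, the peptide apelin, read 9.66 and 10.35 with vehicle and 5.23 and 9.26 with PRI-724 and fell by 2.76 ± 0.60 (adjusted p = 0.0498), with pair differences of -4.43 in young and -1.10 in old cells. Edn1 passed under the 3 other scalings and Apln under none of them. Of 29 genes of growth factors and their receptors 3 fell, the ligands Pdgfd (-2.27 ± 0.36), Vegfd (-1.90 ± 0.37) and Pdgfb (-1.61 ± 0.30). Pdgfd stood at -2.98 and -1.56 in the pairs and Vegfd at -2.76 and -1.04. None of the 3 passed after cyclic loess or quantile normalization, and 1 passed after scaling the interquartile ranges. There the median of the list was 0.19, beside 0.17 for all tested genes. Pdgfb read 7.12 and 8.38 with vehicle and 5.82 and 6.46 with PRI-724.

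Among 33 genes of TGF-beta and BMP signalling 1 fell and 0 rose, with medians of -0.58 and -0.26. The gene was Id2, a target of BMP signalling, which read 9.86 and 9.56 with vehicle and 7.76 and 8.34 with PRI-724. After scaling the interquartile ranges 1 other gene rose and the young median was 0.10, beside 0.28 for all tested genes. Id2 did not pass there or after quantile normalization. Its relative Id1 stood at -1.40 ± 0.31 (adjusted p = 0.0508), and the ligands Bmp6, Tgfb3 and Bmp4 between -1.21 and -1.58. Ltbp4, which holds latent TGF-beta in the matrix, was higher in both pairs, at 1.38 and 1.10 (adjusted p = 0.0743). None of 22 serum response and YAP/TAZ targets passed, with 4 lower at an unadjusted p under 0.05. Nt5e, an ectoenzyme among them, stood at -3.45 in young and -0.76 in old cells. Itga8, the integrin subunit of stellate cells and other pericytes, was the 1 fallen gene of 25 integrin and adhesion genes. It read 7.39 and 6.42 with vehicle and 4.81 and 4.72 with PRI-724, and did not pass after quantile normalization. Of 20 semaphorins, neuropilins and plexins, guidance molecules, Nrp2 and Sema3f fell, by 1.59 ± 0.29 and 1.35 ± 0.27. Neither passed under the 3 other scalings, the last of which gave 1 rise in the list.

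Against these falls, genes of the ATF4 amino acid response were higher. This programme supplies amino acids through importers, enzymes of serine, asparagine and cysteine synthesis, and tRNA synthetases. Of 41 tested, 32 were higher and 2 lower in both pairs, beside 4009 higher and 5435 lower among all 15526 genes. The medians were 0.62 in young and 0.85 in old cells, and 7 genes were at least 2-fold higher in both. The old pair showed the larger median with the values as deposited, and the young pair under the 3 other scalings. The young and old medians were 1.02 and 0.83 after cyclic loess and 1.07 and 0.93 after quantile normalization. After scaling the interquartile ranges they were 1.66 and 0.90, beside 0.28 and 0.06 for all tested genes. At an unadjusted p under 0.05, 25 members were higher and 0 lower, beside 674 and 1730 of all tested genes. Only 4 members rose at the threshold, 1 after cyclic loess, 0 after quantile normalization and 4, not all the same, after scaling the interquartile ranges.

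Of the importers, Slc7a5, the light chain of the LAT1 transporter of large neutral amino acids, read 8.44 and 9.13 with vehicle and 10.05 and 10.77 with PRI-724. Slc3a2, its heavy chain, read 10.55 and 10.50 with vehicle and 11.53 and 11.36 with PRI-724. Both treated arrays lay above both vehicle arrays in either gene, with rises of 1.63 ± 0.26 (adjusted p = 0.0123) and 0.91 ± 0.18 (adjusted p = 0.0314). Slc7a8, the light chain of the related LAT2 transporter and no member of the response, went the other way. It read 9.69 and 10.02 with vehicle and 5.46 and 6.89 with PRI-724, a fall of 3.68 ± 0.33. Slc7a11, the cystine importer whose promoter window is printed above with 2 copies of the element, read 8.07 and 7.76 with vehicle and 10.16 and 9.57 with PRI-724. The groups did not overlap, yet its SE was 0.66 and it did not pass (adjusted p = 0.195), with quiescent values of 6.12 in young and 8.96 in old cells.

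The largest rise of the response that passed was that of an enzyme. Cth, which makes cysteine from cystathionine, read 4.81 and 5.46 with vehicle and 6.44 and 8.56 with PRI-724, a rise of 2.37 ± 0.45 or 5.16-fold (adjusted p = 0.0294). Asns, asparagine synthetase, read 8.17 and 8.59 with vehicle and 9.28 and 10.09 with PRI-724, and Phgdh, the first enzyme of serine synthesis, 5.75 and 6.09 against 6.63 and 7.73. Neither passed (adjusted p = 0.136 and 0.0664), nor did Mthfd2, the mitochondrial folate enzyme (1.30 ± 0.29, adjusted p = 0.0564). Of the synthetases Tars and Nars stood at 1.01 and 0.98. Among the regulators Trib3, a pseudokinase that restrains ATF4, read 5.82 and 6.84 with vehicle and 7.76 and 8.16 with PRI-724 and rose by 1.63 ± 0.29. Ddit3, which encodes CHOP, stood at 1.13 (adjusted p = 0.0903), Nupr1, a stress-induced chromatin protein, at 1.22, and Atf4 itself at 0.58 (adjusted p = 0.301). Atf3 and Cebpb, further members, stood at -0.22 and -0.21.

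Neighbouring stress programmes were tested beside it. Of 21 endoplasmic reticulum chaperones and genes of the XBP1 branch none passed (2 lower at an unadjusted p under 0.05), with medians of -0.48 in young and 0.17 in old cells. After scaling the interquartile ranges the young median turned to 0.75. Edem1, of protein degradation, stood at -1.63 and -0.12. Of 21 Nrf2 antioxidant genes none passed (2 higher and 1 lower at an unadjusted p under 0.05), with medians of -0.17 and 0.16. After scaling the interquartile ranges these were 1.63 and 0.24, a young median close to the 1.66 of the ATF4 list. Klf4, a transcription factor induced by many stimuli, rose by 1.40 ± 0.29 (adjusted p = 0.041), from 7.06 and 7.53 to 8.56 and 8.83, and was the 1 gene of 24 immediate early and heat shock genes that passed. It did not pass after cyclic loess or quantile normalization. The inducible heat shock genes Hspa1a and Hspa1b stood at 1.24 and 1.16, and Fos and Dusp1 at -0.90 and -0.98. None of 24 p53 targets and apoptosis genes passed, with 3 lower at an unadjusted p under 0.05.

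**Figure D5:**
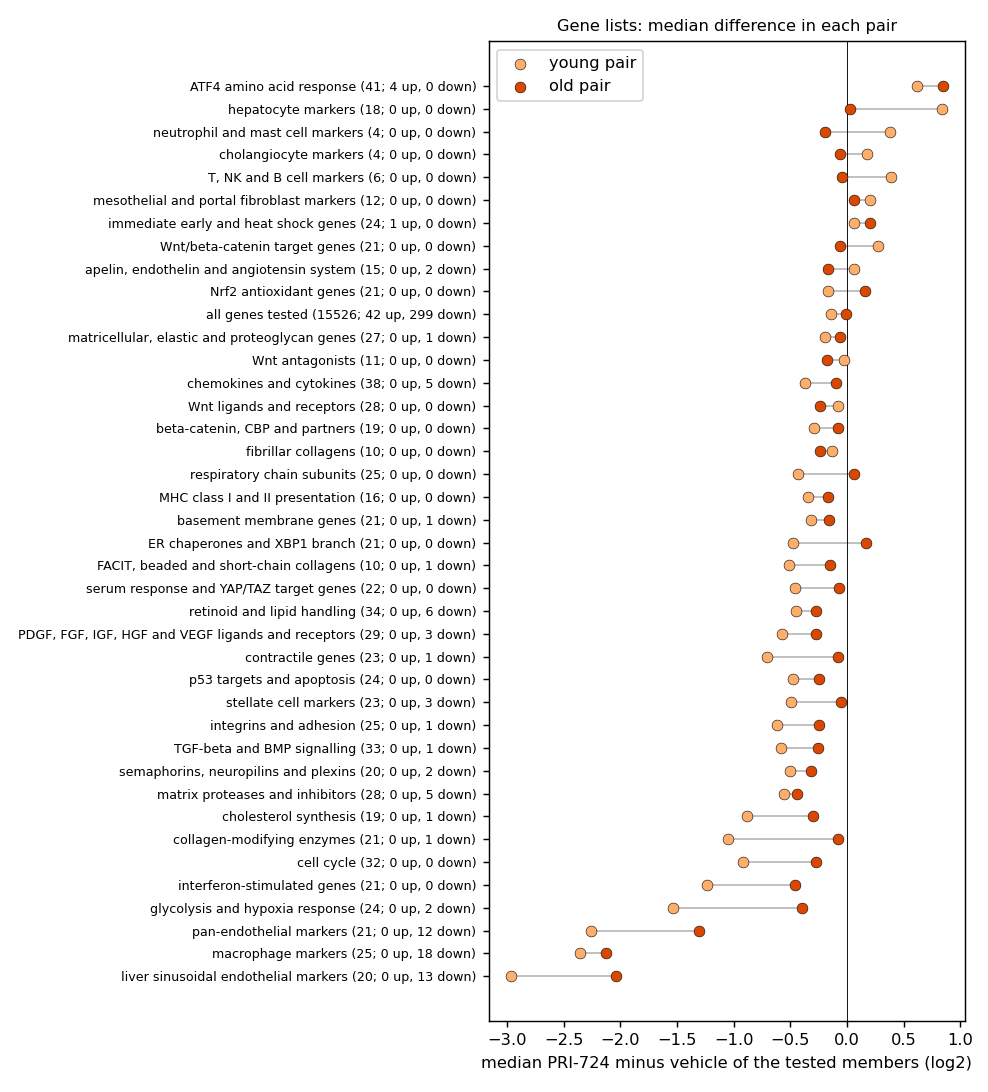
Median PRI-724 minus vehicle difference of the tested members of each of 39 gene lists and of all tested genes, in log2 units, for the young pair (light orange) and the old pair (dark orange); the labels give the number tested and how many passed the threshold up and down. The 3 macrophage and endothelial lists have medians from -1.31 to -2.97 in both pairs, the ATF4 list stands at 0.62 and 0.85, and most other lists are nearer 0 in the old pair than in the young.

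Most other risers were not protein genes of known function in liver. In all, 24 of the 42 were predicted genes, microRNAs, olfactory or vomeronasal receptors and the like. Among the 18 named ones were Srsx, Srsy, Astx5, Speer4b and Speer4c, members of multi-copy families of testis-expressed genes whose copies share sequence, so their probe sets cannot be assigned to 1 copy with certainty. Srsy read 6.44 and 7.08 with vehicle and 9.70 and 8.46 with PRI-724, and its 7 probe sets gave differences from 2.26 to 2.54. On the quiescent arrays it read 8.84 and 9.38. Astx5 rose by 2.37 ± 0.45, with 3.44 in young and 1.31 in old cells. In 37 of the 42 risers the young pair had the larger difference.

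Of the other named risers, Avil and B4galnt2 had the larger difference in the old pair, and Klf15 and Epb41l4a had nearly equal differences. Avil, advillin, an actin-regulating protein, read 5.15 and 4.92 with vehicle and 6.48 and 7.33 with PRI-724 and rose by 1.87 ± 0.31 (adjusted p = 0.0172). B4galnt2, a glycosyltransferase, rose by 1.22 ± 0.26, at 0.94 in young and 1.51 in old cells. Klf15, a transcription factor of amino acid and lipid metabolism, read 5.20 and 5.52 with vehicle and 6.42 and 6.67 with PRI-724 and rose by 1.18 ± 0.25. Epb41l4a, of a family of membrane skeleton proteins, rose by 1.14 ± 0.24, nearly equally in both pairs at 1.16 and 1.12.

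Of 24 glycolysis and hypoxia genes 2 fell and 0 rose, with medians of -1.54 and -0.40. Slc16a3, the lactate exporter, read 8.31 and 6.49 with vehicle and 5.59 and 5.08 with PRI-724 and fell by 2.07 ± 0.36. Pfkl, liver phosphofructokinase, fell by 2.01 ± 0.35, and Tpi1, triosephosphate isomerase, stood at -2.37 and -0.90 (adjusted p = 0.0707). The young vehicle array was the highest of the 6 for all 3 genes. Of 19 cholesterol synthesis genes 1 fell, Fdft1, squalene synthase, by 1.38 ± 0.29, with medians of -0.88 and -0.30. After cyclic loess or quantile normalization none of the 3 fallen genes passed. After scaling the interquartile ranges the medians were -0.06 and -0.30 for the glycolysis list and -0.21 in either pair for the cholesterol list. None of 25 respiratory chain subunits passed, with 4 lower at an unadjusted p under 0.05, beside 1730 of all 15526 tested genes. Their medians of -0.43 and 0.06 became 0.45 and 0.15 after scaling the interquartile ranges.

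No cell cycle gene of 32 passed, with medians of -0.92 in young and -0.27 in old cells that kept their sign under all 3 other scalings. In both pairs 23 were lower and 0 higher, beside 5435 and 4009 of all 15526 tested genes. At an unadjusted p under 0.05, 15 of the 32 were lower, beside 1730 of all tested genes. Mki67, a marker of cycling cells, read 6.49 and 6.37 with vehicle and 5.27 and 6.09 with PRI-724 (-0.75 ± 0.30, adjusted p = 0.26). Mcm4, a subunit of the replicative helicase, stood at -1.88 and -0.68 (adjusted p = 0.0825) and Cdk1, the mitotic kinase, at -1.67 and -0.47 (adjusted p = 0.123).

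Of 38 chemokines and cytokines 5 fell and 0 rose. Ccl6 read 10.78 and 9.39 with vehicle and 4.18 and 5.33 with PRI-724, Ccl9 10.72 and 8.72 against 6.27 and 5.76, and Ccl3 10.45 and 8.55 against 5.95 and 5.76. These 3 ligands of monocyte and neutrophil receptors fell by 5.33 ± 0.94, 3.70 ± 0.58 and 3.64 ± 0.38. Il1a, interleukin 1 alpha, and Il1rn, which blocks the interleukin 1 receptor, fell by 2.76 ± 0.29 and 1.95 ± 0.31. After cyclic loess 3 of the 5 passed and after quantile normalization 2, Ccl3 and Il1a. Of 21 interferon-stimulated genes none passed, with medians of -1.24 and -0.46, and 18 were lower and 0 higher in both pairs. Among all 15526 tested genes 5435 were lower and 4009 higher in both. At an unadjusted p under 0.05 (limma), 8 of the 21 were lower. The medians of the list were -0.21 and -0.35 after scaling the interquartile ranges, beside 0.28 and 0.06 for all tested genes. Oas2, an antiviral enzyme, read 8.53 and 5.80 with vehicle and 5.61 and 4.98 with PRI-724 (adjusted p = 0.057). The vehicle arrays of the 2 ages thus differed by more than the old pair did. None of 16 genes of antigen presentation passed, with 4 lower at an unadjusted p under 0.05. The macrophage list, whose levels are given above, was also lower with PRI-724 than with vehicle, and its part in the fall of these chemokines was not tested.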

How the data were processed

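RNA from 6 samples of mouse hepatic stellate cells was hybridised to 1-colour Affymetrix arrays, 1 array a group. Extraction used RNeasy and labelling the WT PLUS kit, per the labels' protocols. The values deposited by the authors are log2 expression, 1 per probe set, made with Affymetrix Expression Console and RMA per the submitters' processing notes, which name no version.

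Of 41345 probe sets, 23521 carry 1 gene symbol, 1814 several and 16010 none. Those with 1 symbol gave 22180 genes, each through the probe set with the highest mean (1082 genes had several), and 23328 of these probe sets matched a gene ID in RefSeq. The 30% of genes with the lowest mean (under 4.703) were left out. limma 3.58.1 in R 4.3.3 was fitted to all 6 arrays with state and age as terms and an intensity trend (2 residual and 7.765 prior degrees of freedom), with Benjamini-Hochberg adjustment. The error is the disagreement between the ages over the 3 states, and the p-values measure only the spread between these samples, which may be technical. The fit was tested on simulated data. Alternatives changed the filter, the choice of probe set, the intensity trend, the age term, the arrays fitted, the scaling and a minimum fold.

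The gene lists, members and named genes were chosen with earlier results of these data known. The named genes come from the 25 largest falls and 18 eligible rises past the threshold that went the same way in both pairs. They also come from each list's 6 members with the largest differences, its members past the threshold, and 16 genes set by name. Not every gene that met this rule is named in the text. Predicted genes, small RNAs, histones, receptor segments and olfactory or vomeronasal receptors were not named. Outside this rule, Spi1, C1qa, Clec4f, Cx3cr1, Reln, Des, Fbln2, Ctsk, Phgdh, Tars, Nars, Nupr1, Ddit3, Atf4, Atf3, Cebpb and the genes with only a promoter window were named after their values were seen. Python 3.11.15, pandas 2.3.3 and matplotlib 3.10.9 made the tables and figures.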

Additional observations from a re-analysis of the deposited data

Results flagged for a closer look

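Only 3 genes were at least 2-fold changed in opposite directions in the young and the old pair, and the difference between the pairs was not tested for any of them. Lox, the collagen crosslinking enzyme, was 2.92 lower in the young and 1.0 higher in the old pair, a gap of 3.92 log2 units. Cck, cholecystokinin, read 4.69 and 7.35 with vehicle and 5.78 and 6.30 with PRI-724, so the old pair minus the young pair gave -2.13. Prrt2, a synaptic membrane protein, read 5.35 and 5.91 with vehicle and 6.64 and 4.84 with PRI-724, which gave -2.35.

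Probe sets left out of the gene comparison went mostly the other way from genes. Of 7487 probe sets with no gene symbol and enough signal, 178 were at least 2-fold higher in both pairs (2.38%) and 47 at least 2-fold lower (0.628%). Of 1459 with several symbols, 143 were higher (9.8%) and 22 lower (1.51%). Among tested genes the corresponding shares were 0.367% higher and 2.36% lower. Probe sets with several symbols can share sequence with several genes, so the counts are not counts of independent genes.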

How the results depend on the processing

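Under the other scalings the called genes kept their sign, except that 298 of the 299 fallen genes did so after scaling to equal interquartile ranges, but their number changed. The 341 calls were 299 falls and 42 rises. There were 965 calls (780 and 185) from the 4 activated arrays alone, 91 (86 and 5) without age in the model, 103 (100 and 3) after cyclic loess, 84 (82 and 2) after quantile normalization, 198 (170 falls) after scaling to equal interquartile ranges, and 95 (93 and 2) against a minimum 1.5-fold change. Leaving out the lowest 50% of genes gave 25 rises. Leaving out each array in turn gave 0 to 968 calls, 0 to 777 falls and 0 to 191 rises; the 0 is without the young PRI-724 array. At 1.5-fold in both pairs 936 genes were lower and 269 higher. Falls made up 87.7% of calls, 97.1% after cyclic loess, 97.6% after quantile normalization, 85.9% after interquartile range scaling and 80.8% from the 4 arrays alone; with 1 array left out they made up 78.9% to 84.6%, where there were calls. The median of all tested genes was -0.05, and 0.17 after interquartile range scaling. The arrays are paired by age, and the fit without age is the unpaired one. With 2 pairs, the number of arrays limits what can be called. The cause of these changes was not tested. Of the 149 genes named in the text and tested, 88 passed the threshold, and none of those changed sign under any setting run; 35 still passed after cyclic loess, 30 after quantile normalization and 61 after interquartile range scaling. Small differences of genes that did not pass turned sign. After cyclic loess, quantile normalization and interquartile range scaling Ctnnb1 stood at 0.04, 0.16 and 0.88. After the last 2 of these Atf3 stood at 0.08 and 0.35, Cebpb at 0.09 and 0.37 and Timp1 at 0.04 and 0.21. Cck stood at -0.01 after quantile normalization, and Des at 0.05 and Reln at 0.65 after interquartile range scaling. With each array left out in turn, Ctnnb1 ranged from -0.36 to 0.27, Crebbp from -0.11 to 0.59, Ep300 from -0.15 to 0.38, Col1a2 from -0.86 to 0.05, Timp1 from -1.03 to 0.52, Lox from -2.61 to 0.69, Des from -1.23 to 0.14, Reln from -0.53 to 0.10, Cck from -1.12 to 1.16 and Prrt2 from -0.87 to 1.09.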

Other observations

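Further myeloid genes outside the fixed lists also fell; they were chosen after their values were seen. Tlr7, Tlr8 and Tlr13, the endosomal receptors for RNA, fell by 2.56 ± 0.30, 2.82 ± 0.25 and 3.09 ± 0.54 (SE, n = 2 pairs, limma). Tlr8 read 6.52 and 6.32 on the young and old vehicle arrays and 3.65 and 3.56 on the PRI-724 arrays, so the pairs gave nearly the same difference. Folr2, a folate receptor of resident macrophages, was as even, with 8.96 and 8.69 against 5.94 and 5.64. Itgb2, the common beta chain of leukocyte integrins, read 9.86 and 9.44 with vehicle and 6.13 and 6.70 with PRI-724. Trem2, a lipid receptor of macrophages, fell by 1.98 ± 0.38, and Irf8, a myeloid transcription factor, by 1.51 ± 0.33.

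Among endothelial genes outside the lists, Angpt2, the ligand that loosens vessel junctions, read 9.84 and 9.62 with vehicle and 5.42 and 7.54 with PRI-724. Cd93, S1pr1 and Aqp1 fell by 2.80 ± 0.42, 2.75 ± 0.58 and 2.95 ± 0.34. Nrarp, a target of Notch signalling, read 6.59 and 6.44 with vehicle and 4.64 and 4.62 with PRI-724, with quiescent values of 4.60 and 5.02. Angptl4, a secreted inhibitor of lipoprotein lipase, read 6.73 on each quiescent array, 9.80 and 9.75 with vehicle and 7.35 and 8.30 with PRI-724. Spon2, a secreted matrix protein, fell by 2.17 ± 0.31, from 8.10 and 9.75 to 5.85 and 7.67.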
